A study of Mus musculus with 27 samples.

Results

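The 40 genes described here carry the signal from the insulin and insulin-like growth factor receptors through phosphoinositide 3-kinase (PI3K), AKT and the TSC complex to the kinase mTOR, together with the Rag GTPases and amino acid sensors that act on mTOR complex 1 at the lysosome. They were taken by gene symbol from a table of raw read counts for 45195 mouse genes, and all 40 were found and passed the filter on low counts in every fit. The study followed adult neurogenesis through 4 stages. The first, neural stem cells (NSC), and the second, early neuroblasts (ENB), were taken from the subventricular zone (SVZ); late neuroblasts (LNB) and the neurons they become (Neuron) were taken from the olfactory bulb (OB). For each stage, total mRNA came from sorted eYFP-positive cells and ribosome-bound mRNA from RiboTag, in which recombined cells carry an HA tag on the ribosomal protein Rpl22 and anti-HA immunoprecipitation of whole tissue recovers the tagged ribosomes.

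Every group came from male mice of 8 to 12 weeks on a C57BL/6 background that received tamoxifen at 200 mg per kg by gavage. The lines were TiCRY (Tlx-CreER, Rpl22.HA, eYFP) and DiCRY (Dcx-CreER, Rpl22.HA, eYFP), so which cells carry the label depends on where the Tlx or Dcx promoter drove Cre. Library names give TiCRY for NSC, DiCRY for ENB and LNB, and Dxc for Neuron, and 1 SVZ control carries TICRY and the others Cre-. The OB controls carry DICRY or Dxc. Times in the names are 4d for the NSC immunoprecipitates and 1 SVZ control, 3dp or 3dpi for the ENB and LNB immunoprecipitates and 2 OB controls, and 4wpi for Neuron and the third OB control. Total mRNA had 3 libraries per stage, each from 200 to 500 sorted cells of 1 to 2 mice. Ribosome-bound mRNA had 3 libraries for LNB and 2 for every other stage. The controls, 3 from the SVZ and 3 from the OB, are immunoprecipitates of tissue without the HA tag and hold mRNA of the whole tissue that the procedure carries along.

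Growth factors that bind Igf1r or Insr activate PI3K, whose lipid product recruits PDK1 and AKT to the membrane. AKT inhibits the TSC complex, which otherwise keeps the small GTPase Rheb inactive, and active Rheb switches on mTOR complex 1. Amino acids act in parallel through the Rag GTPases, which bring mTOR complex 1 to the lysosomal surface where Rheb can reach it; the pathway is known in adult neural stem cells for its control of protein synthesis, growth and the exit from quiescence.

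Total mRNA libraries held 5225929 to 15994635 counts, HA immunoprecipitates 6325479 to 13316334, and no-HA controls 5960357 to 9120659. Marker genes followed the labels in part. The summed level of 8 neuroblast markers was 11280 to 12570 CPM (read counts scaled to library size) in ENB total mRNA and 1217 to 1345 in Neuron, and that of 8 mature neuron markers was 7013 to 10960 in Neuron against at most 2399 in any total library of an earlier stage. The LNB total libraries were not alike: replicates 1 and 3 held 4546 and 6664 CPM of 6 mature astrocyte markers, and replicate 2 held 703.3. Replicate 3 also held 323.9 CPM of 6 endothelial markers, against 17.4 and 1.93 in the others. The ENB immunoprecipitates lay close to their control, with 1.52% of all genes tested called between them and 19460 to 19800 CPM of 6 oligodendrocyte markers, against 17290 to 22260 in the SVZ controls. The same markers reached 7831 to 8315 CPM in the NSC immunoprecipitates. OB control replicate 3 also stood apart at several of the 40 genes. Both Neuron RiboTag libraries were assigned from their titles, although the field for their sample type names total mRNA. LNB total replicate 2 is also the only LNB total library with the second index of the 3 Neuron total libraries, so index and cell makeup cannot be told apart among the LNB libraries. No LNB RiboTag library shares a second index with a Neuron RiboTag library. Between those libraries alone, stage and index cannot be told apart, and a fit with the index as a term draws on the other immunoprecipitates and controls. ENB and LNB libraries were in part from the same animals: ribosome-bound replicates 1 and 2 of both, and total ENB replicates 2 and 3 with total LNB replicates 3 and 2.

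A gene was called where edgeR's quasi-likelihood test gave an adjusted p below 0.05, and changes are log2 fold changes ± SE of the later group over the earlier one. The p-values measure the spread between these libraries. Of the 40 genes, 12 were called in at least 1 of the 6 steps between neighbouring stages and 28 in none. No share of all genes was taken over the 6 steps together, so each step is set beside its own share. From NSC to ENB in total mRNA, 4 rose and 1 fell, where 10.1% of all genes tested were called, 4.95% as higher and 5.12% as lower. From ENB to LNB 2 rose, where 3.77% of all genes were called, 2.80% as higher. From LNB to Neuron 4 rose and 6 fell, where 14.7% of all genes were called, 5.33% as higher and 9.34% as lower. In ribosome-bound mRNA 1 fell from NSC to ENB, where 8.28% of all genes were called, 3.44% as higher and 4.85% as lower. From ENB to LNB 4 rose, where 12.9% were called, 6.81% as higher and 6.05% as lower, and from LNB to Neuron 1 fell, where 4.13% were called, 3.75% as lower. The median change of the 40 was 0.09, 0.06 and -0.07 at the 3 total steps, beside -0.01, 0.05 and -0.18 over all genes. It was -0.14, 0.45 and 0.14 at the 3 ribosome-bound steps, beside 0.02, 0.08 and -0.15. The members' count stood above the background share at LNB to Neuron in total mRNA, with 10 of 40, below it at NSC to ENB in ribosome-bound mRNA, with 1 of 40, and near it at the other steps. At the total LNB to Neuron step, fewer members were called with LNB replicate 2 as the sole LNB library. Fewer of all genes were called then too, so that drop is not particular to the members. Scaling by DESeq2-type size factors (RLE) moved the median of all genes at this step from -0.18 to -0.01. The split of all calls moved from 937 higher and 1643 lower to 1193 and 1272, and that of the members became 4 and 4.

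**Figure D1:**
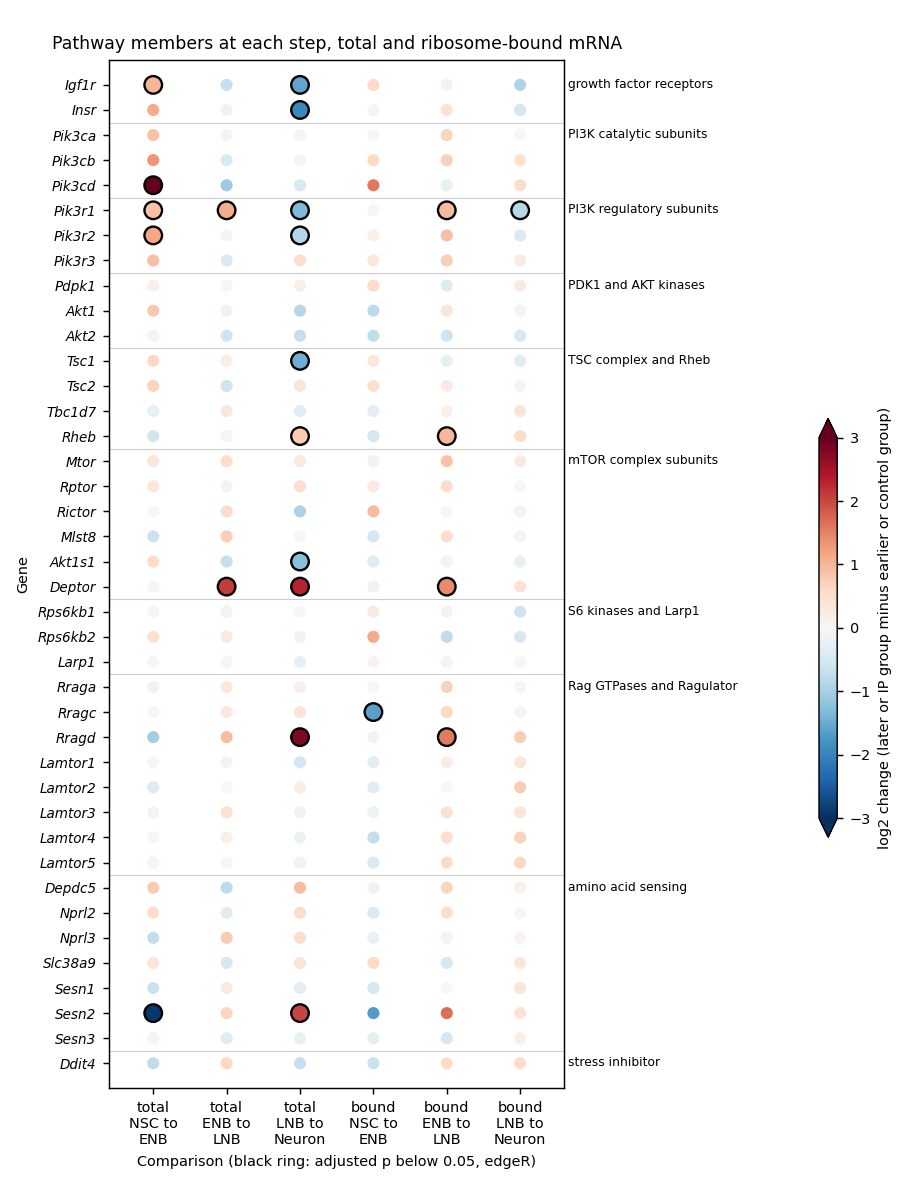
Log2 change of each of the 40 genes (rows, ordered by role) at the 3 steps in total and the 3 steps in ribosome-bound mRNA (columns); colour gives the change of the later over the earlier stage and a black ring marks an adjusted p below 0.05. The LNB to Neuron column in total mRNA holds 10 of the 23 rings.

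Both growth factor receptors fell in total mRNA from LNB to Neuron, where they were lowest. Igf1r (ENSMUSG00000005533, chromosome 7, 67952257 to 68233668 on GRCm38.p6, as all gene positions here), the receptor for insulin-like growth factors, stood at 58.0, 74.7 and 61.7 CPM in the NSC total libraries and at 107, 160 and 124 in ENB. It stood at 91.3, 103 and 48.8 in LNB and at 22.9, 29.99 and 27.9 in Neuron. Neither the NSC and ENB libraries nor the LNB and Neuron libraries overlapped. Igf1r rose by 1.01 ± 0.29 from NSC to ENB (adjusted p = 0.0444) and fell by 1.59 ± 0.29 from LNB to Neuron (adjusted p = 0.00412). Insr (ENSMUSG00000005534, chromosome 8, 3150922 to 3279649), the insulin receptor, read 82.0, 60.2 and 114 CPM in NSC, 128, 318 and 108 in ENB, 208, 107 and 194 in LNB, and 49.4, 45.1 and 37.8 in Neuron. All 3 Neuron libraries lay below every other total library, while the ENB libraries spread widely around a single high one. Insr fell by 1.94 ± 0.42 from LNB to Neuron (adjusted p = 0.00976), and its NSC to ENB change of 1.11 ± 0.41 did not pass (adjusted p = 0.103). The LNB libraries with the higher Insr levels, replicates 1 and 3, are those with 4546 and 6664 CPM of the 6 astrocyte markers, against 703.3 in replicate 2, and Neuron held 1476, 3292 and 708.9. The part of these markers in the Insr fall was not tested. In bulk samples of this kind, fewer cells of a type and less RNA per cell cannot be told apart.

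In ribosome-bound mRNA no receptor step was called. Igf1r read 37.2 and 46.8 CPM in NSC, 58.5 and 68.3 in ENB, 63.1, 67.8 and 77.2 in LNB, and 46.5 and 26.95 in Neuron. Its change from LNB to Neuron was -0.92 ± 0.29 (adjusted p = 0.0871) and that of Insr was -0.56 ± 0.23 (adjusted p = 0.191). The difference between ribosome-bound and total change was 0.67 ± 0.40 for Igf1r (adjusted p = 0.38) and 1.37 ± 0.52 for Insr (adjusted p = 0.155). The no-HA controls held Igf1r at 20.2 to 36.8 CPM in the SVZ and at 49.3 to 59.9 in the OB, so both Neuron immunoprecipitates lay below every control of their own tissue. The Igf1r call from NSC to ENB was lost without any 1 of the 6 libraries (adjusted p from 0.0781 to 0.196). The LNB to Neuron calls of Igf1r and Insr held without any 1 library (adjusted p up to 0.0251 and 0.037), but with LNB replicate 2 as the sole LNB library Insr changed by -1.30 (adjusted p = 0.177) and Igf1r by -1.95 (adjusted p = 0.00364).

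Among the PI3K subunits, the regulatory subunits changed most often. Pik3r1 (ENSMUSG00000041417, chromosome 13, 101680761 to 101768217) encodes the p85-alpha regulatory subunit, which stabilises the catalytic subunit and docks it to activated receptors. It read 67.9, 82.0 and 64.6 CPM in NSC, 119, 152 and 127 in ENB, 338, 226 and 297 in LNB, and 140, 103 and 99.6 in Neuron. The libraries of neighbouring stages did not overlap at any of the 3 steps. Pik3r1 rose by 0.89 ± 0.22 from NSC to ENB (adjusted p = 0.0248) and by 1.11 ± 0.22 from ENB to LNB (adjusted p = 0.0249), then fell by 1.33 ± 0.22 from LNB to Neuron (adjusted p = 0.00233).

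Ribosome-bound Pik3r1 showed the same peak in LNB. Its level was 130 and 126 CPM in NSC, 123 and 123 in ENB, 240, 234 and 239 in LNB, and 131 and 134 in Neuron. The 3 LNB libraries lay above all the others, including the OB controls at 134, 121 and 89.1 CPM. The change was 0.95 ± 0.21 from ENB to LNB (adjusted p = 0.00593) and -0.85 ± 0.21 from LNB to Neuron (adjusted p = 0.0291). The LNB immunoprecipitate exceeded the OB control by 1.05 ± 0.18 (adjusted p = 0.00698), and that call held under all 12 alternatives run. Other Pik3r1 calls were less firm. The NSC to ENB call in total mRNA was lost without any 1 of its 6 libraries (adjusted p from 0.051 to 0.133), and the ribosome-bound LNB to Neuron call without any 1 of its 5 (adjusted p from 0.0767 to 0.161). With the second index as a term that ribosome-bound change was -0.41 (adjusted p = 0.355), and its adjusted p was 0.051 with no filter and 0.0512 with expected counts. The total ENB to LNB call was lost without ENB replicate 1 (0.0999), 2 (0.0578) or 3 (0.11) or LNB replicate 1 (0.0911) or 3 (0.0738), and the ribosome-bound one without ENB replicate 1 (0.0578) or 2 (0.0534). With LNB replicate 2 alone the total change from ENB to LNB was 0.84 (adjusted p = 0.522), and the adjusted p of the fall into Neuron was 0.0501.

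Pik3r2 (ENSMUSG00000031834, chromosome 8, 70768176 to 70776712), the p85-beta subunit, stayed high through both neuroblast stages. It read 92.9, 77.5 and 76.6 CPM in NSC, 178, 159 and 212 in ENB, 192, 205 and 122 in LNB, and 88.8, 81.3 and 110 in Neuron. It rose by 1.15 ± 0.23 from NSC to ENB (adjusted p = 0.0111) and fell by 0.89 ± 0.23 from LNB to Neuron (adjusted p = 0.0243). With RLE scaling the adjusted p of the fall was 0.0548, and with no filter 0.0937. It was also lost without LNB replicate 1 (0.085) or 2 (0.139) or Neuron replicate 1 (0.0596) or 2 (0.0741), and the rise without NSC replicate 2 (0.0676) or 3 (0.0539) or ENB replicate 3 (0.0529). Pik3r3, the p55-gamma subunit, was called at no step. In TPM, a level scaled to transcript length and library size, the mean of Pik3r2 was above that of Pik3r1, and that above Pik3r3, at each total stage. In NSC Pik3r2 stood at 44.1 ± 8.83 TPM (SD, n = 3) and Pik3r1 at 22.3 ± 4.22. In LNB they stood at 92.5 ± 34.8 and 90.7 ± 26.9, closer than their spread.

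Of the catalytic subunits, Pik3cd changed and Pik3ca and Pik3cb did not pass the test at any step. Pik3cd (ENSMUSG00000039936, chromosome 4, 149649168 to 149702566) encodes p110-delta, best known from leukocytes. It read 0.787, 1.52 and 6.28 CPM in NSC and 38.0, 44.8 and 52.9 in ENB, a rise of 4.01 ± 0.85 (adjusted p = 0.0141). LNB held 15.9, 27.98 and 19.9 CPM and Neuron 26.5, 3.18 and 16.4, and neither later step was called. The 6 markers of microglia, the resident leukocytes of the brain, summed to 4.12 to 14.3 CPM in NSC and 7.76 to 27.8 in ENB, with Tmem119 and C1qa at 0 in all NSC libraries. Their part in the rise was not tested. Without NSC replicate 1 or 2 the adjusted p of the Pik3cd rise was 0.0516 or 0.0631. In the immunoprecipitates Pik3cd was lower in NSC, at 2.65 and 3.69 CPM, than in the SVZ controls, at 18.2, 13.8 and 14.8; the difference was -2.29 ± 0.58 (adjusted p = 0.0158), and it was lost without NSC replicate 1 (0.0984) or 2 (0.073). Per transcript length, Pik3ca, which encodes p110-alpha, stood at 13.4 ± 2.22 TPM in NSC against 1.09 ± 0.838 for Pik3cd (SD, n = 3). In ENB the 2 levels, 23.3 ± 5.81 and 23.2 ± 2.50 TPM, did not differ beyond their spread. Pik3cb, which encodes p110-beta, stayed at or below 2.26 TPM on average in the 4 total stages.

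**Figure D2:**
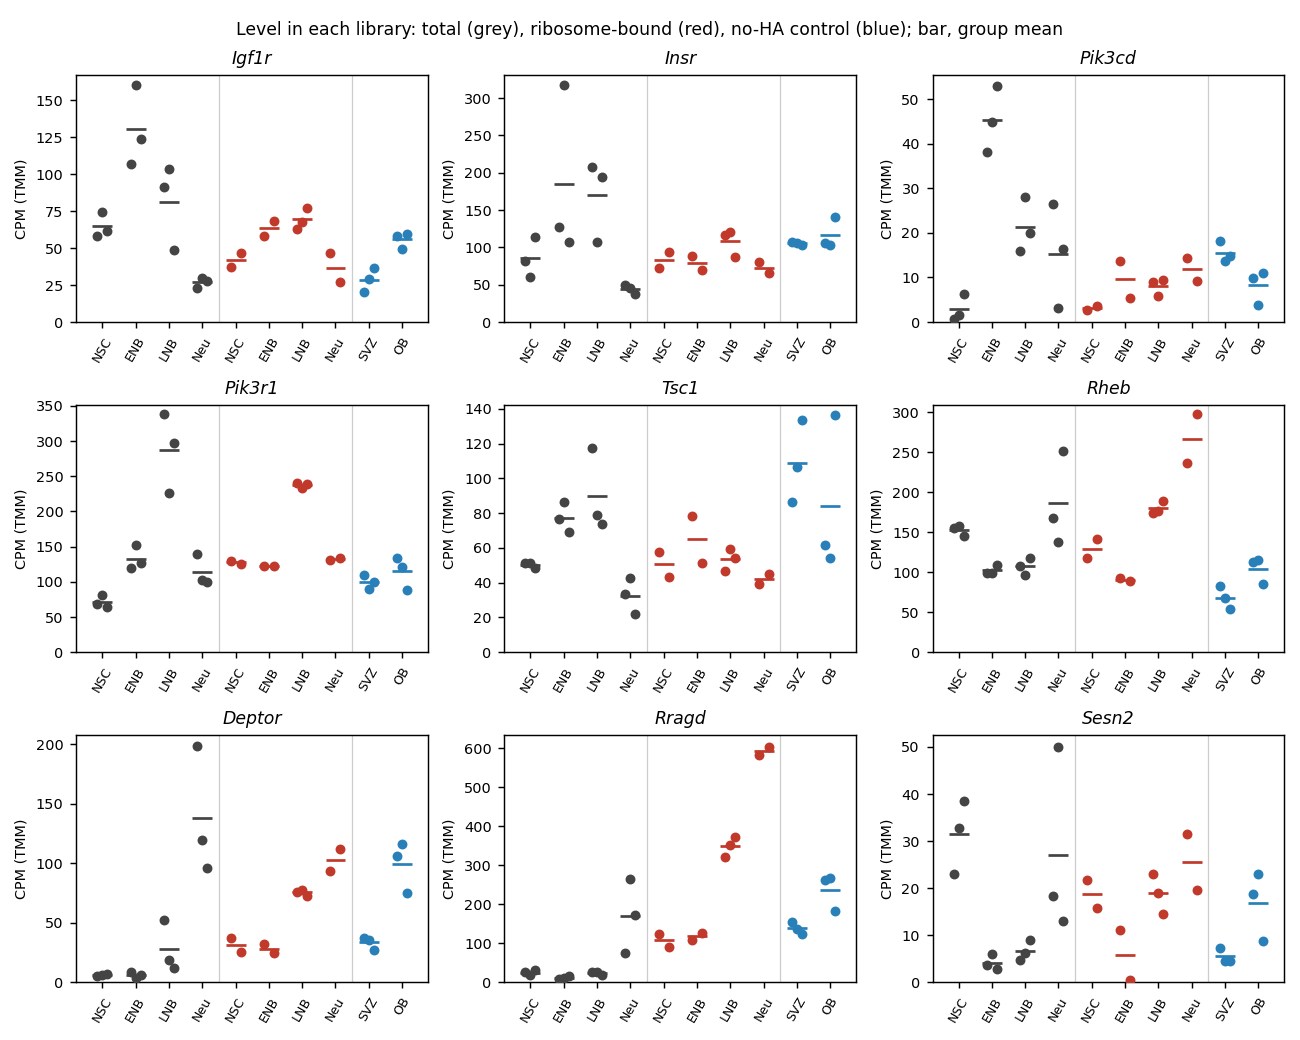
Level of 9 of the genes in each library in CPM (linear axes from 0), for the 4 stages in total mRNA (grey) and ribosome-bound mRNA (red) and for the 2 control groups (blue); points are libraries and bars are group means. Pik3r1 peaks in LNB in both kinds of library, and among the stages Rragd and Deptor are highest in Neuron in both.

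No step of PDK1 or the AKT kinases passed the test. Pdpk1, which encodes the kinase that activates AKT, changed by 0.17 or less in size at each total step. Akt2 had the higher TPM of the 2 AKT genes among the 40 in NSC, 92.5 ± 3.15 against 34.98 ± 3.27 for Akt1 (SD, n = 3). In Neuron the values were 38.1 ± 20.6 and 31.9 ± 7.52, closer than their spread. The Akt2 steps of 0.09 ± 0.28, -0.59 ± 0.29 and -0.71 ± 0.29 were not called (adjusted p = 0.887, 0.3 and 0.117). Against the SVZ control Akt2 was higher in the NSC immunoprecipitate, at 130 and 194 CPM against 77.8, 89.7 and 121, by 0.75 ± 0.23 (adjusted p = 0.0408), a call lost without NSC replicate 2 (0.353) or SVZ control replicate 1 (0.0898) or 2 (0.0984).

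Tsc1 fell and Rheb, the target of the TSC complex, rose at the last step in total mRNA. Tsc1 (ENSMUSG00000026812, chromosome 2, 28640993 to 28691172) encodes hamartin, which stabilises the GTPase-activating subunit encoded by Tsc2. It read 51.3, 51.4 and 48.7 CPM in NSC, 76.3, 86.1 and 69.2 in ENB, 117, 79.1 and 73.9 in LNB, and 33.3, 42.5 and 22.0 in Neuron. Neuron lay below all other stages, and Tsc1 fell by 1.47 ± 0.28 from LNB to Neuron (adjusted p = 0.00486). That call held without any 1 library (adjusted p up to 0.0252), and with LNB replicate 2 alone the change was -1.29 (adjusted p = 0.0546). Tsc2 was called at no step. It read 76.2, 155 and 87.1 CPM in NSC, 168, 169 and 175 in ENB, 80.0, 147 and 109 in LNB, and 169, 138 and 129 in Neuron, a last change of 0.38 ± 0.29 (adjusted p = 0.412). The third subunit, Tbc1d7, was called at no step.

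Rheb (ENSMUSG00000028945, chromosome 5, 24802823 to 24842361), the GTPase that activates mTOR complex 1 directly, read 155, 157 and 146 CPM in NSC and 98.7, 99.7 and 109 in ENB. It read 107, 97.0 and 118 in LNB and 168, 138 and 252 in Neuron. The neuroblast libraries all lay below those of NSC and Neuron, and the rise from LNB to Neuron was 0.79 ± 0.22 (adjusted p = 0.0318). In ribosome-bound mRNA it read 118 and 142 CPM in NSC, 92.4 and 88.9 in ENB, 174, 177 and 189 in LNB, and 237 and 297 in Neuron. These ribosome-bound groups did not overlap at any step, and the rise was called from ENB to LNB, 0.99 ± 0.23 (adjusted p = 0.00934), but not from LNB to Neuron, 0.57 ± 0.22 (adjusted p = 0.164). The Neuron immunoprecipitate exceeded the OB control, which read 113, 115 and 85.4 CPM, by 1.36 ± 0.22 (adjusted p = 0.000662), a call that held under all 11 alternatives. The total LNB to Neuron call was lost without LNB replicate 1 (0.1) or Neuron replicate 3 (0.103). That call was lost too with the second index as a term (0.0757), and with LNB replicate 2 as the sole LNB library. The ribosome-bound ENB to LNB call was lost without ENB replicate 1 (0.0689) or 2 (0.0774), and with animal as a block (0.0559).

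The kinase mTOR itself showed no step past the threshold. Mtor read 33.2, 55.9 and 44.4 CPM in NSC, 55.5, 81.1 and 34.4 in ENB, 93.5, 61.5 and 95.5 in LNB, and 142, 76.6 and 90.7 in Neuron. Neighbouring stages overlapped at each step, and the changes were 0.36 ± 0.35, 0.55 ± 0.35 and 0.30 ± 0.35. Rptor and Mlst8, partners of mTOR, and Rictor, which defines mTOR complex 2, were called at no step.

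The 2 endogenous inhibitors among the complex subunits, Deptor and Akt1s1, went opposite ways. Deptor (ENSMUSG00000022419, chromosome 15, 55112317 to 55259273), a protein that binds and restrains mTOR, was lowest in the SVZ stages, with 5.63, 6.02 and 7.29 CPM in NSC and 8.71, 4.13 and 6.65 in ENB. It read 52.5, 18.6 and 12.5 CPM in LNB and 198, 120 and 95.9 in Neuron. Every LNB library lay above every ENB library, and every Neuron library above every LNB library. The change was 2.09 ± 0.51 from ENB to LNB (adjusted p = 0.0449) and 2.31 ± 0.51 from LNB to Neuron (adjusted p = 0.011). The second of these held under all 13 alternatives run, and the first was lost without ENB replicate 1 (0.103), 2 (0.155) or 3 (0.152) or LNB replicate 1 (0.176), which holds the highest LNB level. The first was lost too with expected counts (0.0529), a replicate block (0.062) and the second index as a term (0.126). It was also lost with LNB replicate 2 as the sole LNB library. Markers of mitral and other glutamatergic neurons of the bulb moved alongside Deptor in total mRNA. Their 6 genes summed to 0.125 to 11.9 CPM in ENB, with Slc17a7 at 0 in every ENB library, to 65.0 to 186 in LNB, with Tbx21 at 0, and to 596 to 767 in Neuron, where all 6 were detected in every library. Their part in the Deptor rise was not tested.

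Ribosome-bound Deptor was called at 1 step, the one from the SVZ to the OB. It read 37.3 and 25.6 CPM in NSC, 32.3 and 24.7 in ENB, 76.2, 78.0 and 72.6 in LNB, and 93.4 and 112 in Neuron. The ENB to LNB change was 1.41 ± 0.26 (adjusted p = 0.00201). The no-HA controls differed by as much: the SVZ controls read 37.7, 35.5 and 27.6 CPM and the OB controls 106, 116 and 75.4, a difference of 1.56 ± 0.23 (adjusted p = 2e-04). With each stage taken relative to its own control, the ENB to LNB change of Deptor reversed to -0.16 (adjusted p = 0.884).

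Akt1s1 (ENSMUSG00000011096, chromosome 7, 44849224 to 44855421) encodes PRAS40, an mTOR complex 1 inhibitor that AKT inactivates. It read 58.7, 62.7 and 50.8 CPM in NSC, 75.8, 94.5 and 89.3 in ENB, 62.9, 61.1 and 33.7 in LNB, and 33.3, 19.1 and 13.6 in Neuron. It fell by 1.25 ± 0.34 from LNB to Neuron (adjusted p = 0.0298), although the lowest LNB and highest Neuron libraries nearly met. The call was lost with RLE scaling (0.0534) and without LNB replicate 1 (0.101) or 2 (0.113) or Neuron replicate 2 (0.0819) or 3 (0.0802). It was lost too with no filter (0.0666), with the second index as a term (0.0535), and with LNB replicate 2 as the sole LNB library. Ribosome-bound Akt1s1 read 16.7 to 33.9 CPM over the 4 stages and the controls 19.6 to 30.6, and it was called in no comparison among the immunoprecipitates.

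Downstream of mTOR complex 1, the S6 kinase genes and Larp1 were called at no step. Larp1, which encodes an RNA-binding protein that represses mRNAs with a terminal oligopyrimidine start when mTOR complex 1 is inactive, read 41.7, 28.4 and 35.1 CPM in NSC and 30.3, 43.2 and 28.4 in ENB. It read 55.3, 28.1 and 22.3 in LNB and 40.2, 29.4 and 17.5 in Neuron, so all 4 stages overlapped. Its largest change at a step, in either kind of library, was -0.28 ± 0.41, from LNB to Neuron in total mRNA (adjusted p = 0.694). Rps6kb2, which encodes S6 kinase 2, was lower in the LNB immunoprecipitates, at 23.1, 23.1 and 22.7 CPM, than in the OB controls, at 44.4, 38.9 and 133, by -1.65 ± 0.47 (adjusted p = 0.037). The value of 133 belongs to OB control replicate 3, and without that library the difference was not called (adjusted p = 0.267), nor without LNB replicate 1 (0.0973), 2 (0.123) or 3 (0.136).

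Among the Rag GTPases, which act as a pair of one A or B with one C or D subunit, the D subunit stood out in range. Rragd (ENSMUSG00000028278, chromosome 4, 32982998 to 33022180) read 26.8, 18.2 and 31.5 CPM in NSC total mRNA, 9.40, 11.6 and 16.8 in ENB, 26.8, 27.3 and 19.6 in LNB, and 74.7, 265 and 172 in Neuron. The 3 Neuron libraries lay above every other total library, and the rise from LNB was 2.79 ± 0.43 (adjusted p = 0.00162). Oligodendrocyte markers also moved at this step, and all 6 were detected in every library. Their sum was 1796, 1424 and 3340 CPM in LNB and 1868, 5706 and 8324 in the Neuron libraries with Rragd at 74.7, 265 and 172. In ribosome-bound mRNA the sum of these markers was 1687 to 2305 CPM in LNB and 503.9 to 855.5 in Neuron. Their part in the Rragd rise was not tested. The call held without any 1 library (adjusted p up to 0.0096), and with LNB replicate 2 alone the change was 2.63 (adjusted p = 0.0544). Rragc (ENSMUSG00000028646, chromosome 4, 123917433 to 123936997), the C subunit, read 21.2, 37.7 and 26.5 CPM in LNB and 47.9, 31.0 and 35.2 in Neuron, a change of 0.42 ± 0.32 (adjusted p = 0.421). Per transcript length, Rragd stood at 6.77 ± 1.81 TPM and Rragc at 15.2 ± 5.03 in LNB (SD, n = 3). In Neuron they stood at 59.3 ± 32.8 and 24.2 ± 4.30. The order of the 2 means turned, but the Neuron libraries of Rragd ran from 24.2 to 89.3 TPM and overlapped those of Rragc, 20.8 to 29.1. Rraga, the A subunit, was above both in the first 3 stages and in Neuron had a mean of 142 ± 31.9 TPM.

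Ribosome-bound Rragd was called 1 step earlier, from ENB to LNB. It read 124 and 91.5 CPM in NSC, 110 and 127 in ENB, 321, 352 and 373 in LNB, and 581 and 604 in Neuron. LNB and Neuron stood clear of all earlier libraries, and the change was 1.55 ± 0.24 from ENB to LNB (adjusted p = 0.00031) and 0.77 ± 0.22 from LNB to Neuron (adjusted p = 0.0601). Controls from the OB also held more Rragd than those from the SVZ, 262, 266 and 182 CPM against 155, 136 and 124, by 0.78 ± 0.20 (adjusted p = 0.017), a call lost without SVZ control replicate 2 (0.0582) or 3 (0.0767) or OB control replicate 1 (0.0679) or 2 (0.0672). Relative to the controls the ENB to LNB change was 0.78 (adjusted p = 0.311). The Neuron immunoprecipitate exceeded the OB control by 1.32 ± 0.22 (adjusted p = 0.000765), a call that held under all 11 alternatives. Rragc fell in ribosome-bound mRNA from NSC, at 65.6 and 66.8 CPM, to ENB, at 25.4 and 17.3, by 1.63 ± 0.32 (adjusted p = 0.00746). Without ENB replicate 2 the adjusted p of this fall was 0.0764.

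The 5 Ragulator genes Lamtor1 to Lamtor5, which anchor the Rag GTPases to the lysosome, were called at no step. Lamtor5 had the highest mean TPM of all 40 genes in each stage of total mRNA, from 228 to 271. In the Neuron immunoprecipitates Lamtor5, at 103 and 117 CPM against 52.8, 51.3 and 43.5 in the OB controls, was higher by 1.16 ± 0.26 (adjusted p = 0.00522), which held under all 11 alternatives. Lamtor3 was higher by 0.65 ± 0.21 (adjusted p = 0.0291), a call lost without OB control replicate 1 (0.0597) or Neuron replicate 1 (0.0862) or 2 (0.116).

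**Figure D3:**
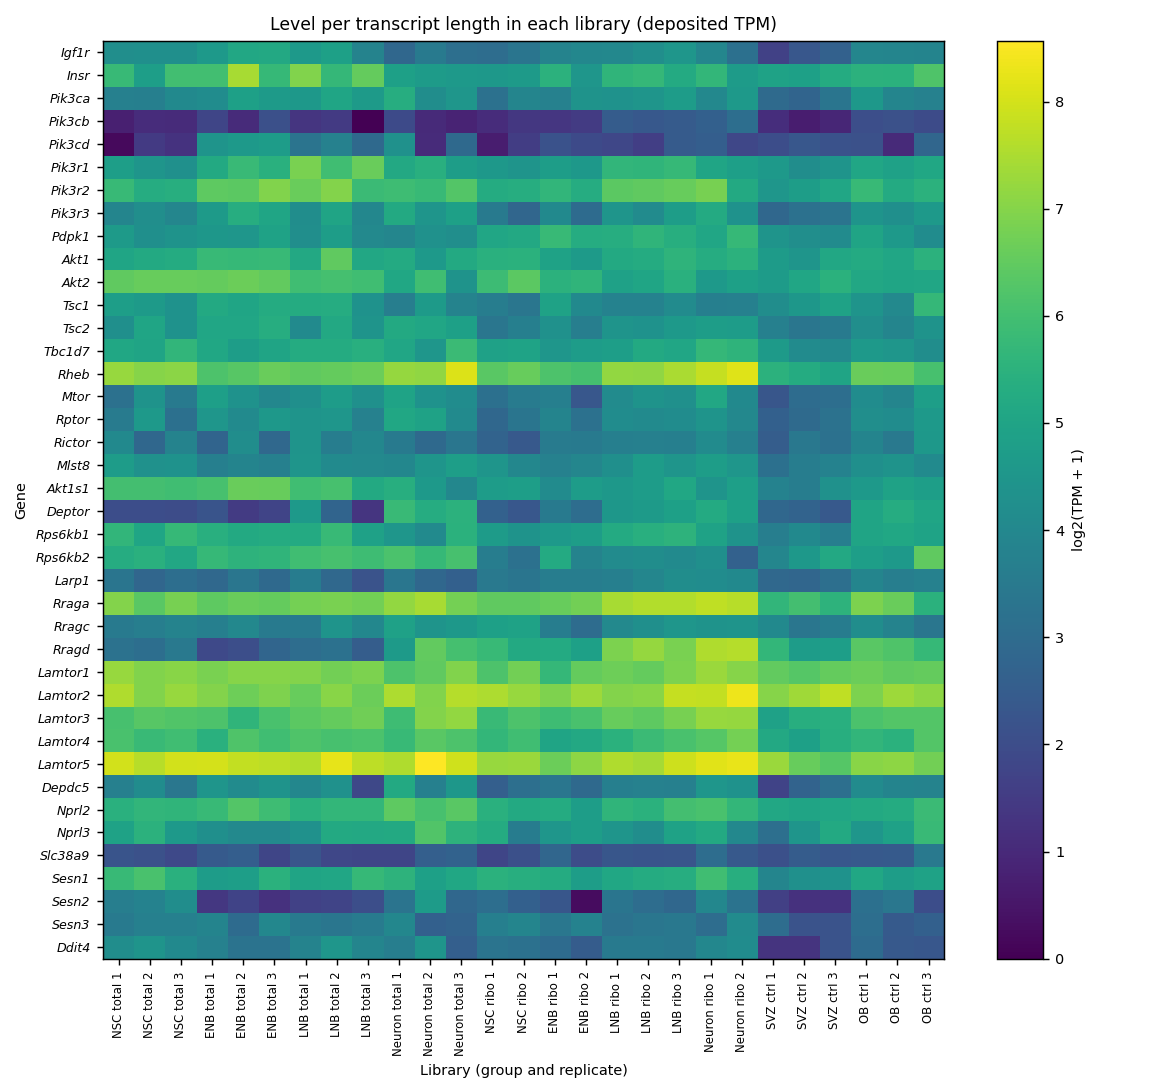
Level of the 40 genes (rows) in all 27 libraries (columns) as log2(TPM + 1) from the deposited TPM values, a scale per transcript length on which genes can be compared. Lamtor5, Lamtor2, Rheb and Rraga are among the brightest rows, Pik3cb and Slc38a9 among the darkest, and Rragd brightens in the Neuron columns.

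Since Rheb and Rragd rose together into neurons in total mRNA and into LNB in ribosome-bound mRNA, the 250 bases before their annotated starts are shown, with those of Rragc, the paralog of Rragd that was called at neither of these steps, and of Sesn2, which rose into neurons in total mRNA. They are from RefSeq on GRCm38.p6, printed 5′ to 3′ on the gene's own strand, and capitals mark the palindrome CACGTG, the E-box core that TFEB and related lysosomal regulators are known to bind. The windows are chr5:24842362-24842611 on the minus strand for Rheb, chr4:123917183-123917432 on the plus strand for Rragc, chr4:32982748-32982997 on the plus strand for Rragd and chr4:132510457-132510706 on the minus strand for Sesn2.
Rheb: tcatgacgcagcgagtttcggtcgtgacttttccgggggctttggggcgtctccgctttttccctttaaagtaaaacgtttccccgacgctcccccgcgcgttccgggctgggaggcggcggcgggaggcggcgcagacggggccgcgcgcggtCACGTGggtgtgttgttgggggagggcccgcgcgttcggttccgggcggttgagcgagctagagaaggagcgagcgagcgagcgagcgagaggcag
Rragc: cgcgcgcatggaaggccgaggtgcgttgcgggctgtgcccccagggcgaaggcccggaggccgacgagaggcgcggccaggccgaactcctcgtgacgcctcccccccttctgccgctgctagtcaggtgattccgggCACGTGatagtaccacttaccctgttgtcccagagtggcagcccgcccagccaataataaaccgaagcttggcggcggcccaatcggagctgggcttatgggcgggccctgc
Rragd: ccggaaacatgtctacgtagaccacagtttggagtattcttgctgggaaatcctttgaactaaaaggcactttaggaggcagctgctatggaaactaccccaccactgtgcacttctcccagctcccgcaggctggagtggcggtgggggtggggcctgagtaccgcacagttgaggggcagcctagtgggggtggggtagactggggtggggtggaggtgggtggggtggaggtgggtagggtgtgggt
Sesn2: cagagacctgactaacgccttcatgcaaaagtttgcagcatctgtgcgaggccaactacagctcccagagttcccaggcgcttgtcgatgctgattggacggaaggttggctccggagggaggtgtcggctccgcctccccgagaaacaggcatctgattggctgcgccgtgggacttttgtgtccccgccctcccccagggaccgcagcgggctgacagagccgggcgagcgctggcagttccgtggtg

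Rheb and Rragc each hold the motif once, and the windows of Rragd and Sesn2 do not hold these letters. Windows were found for 36 of the 40 genes, 47 windows in all. The motif stood in those of 5 genes, Rheb, Rragc, Lamtor1, Lamtor4 and Tbc1d7, and in 6.02% of the 32851 windows of the same length over all genes. The FOXO motif GTAAACA, searched on both strands, was in a window of Akt1 and in 3.17% of all windows. The amino acid response element TGATGCAA was in a window of Pik3cd and in 0.791% of all windows. These matches are letters in a window and were not set against binding.

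The amino acid sensors were led by Sesn2 (ENSMUSG00000028893, chromosome 4, 132492804 to 132510456), a leucine sensor that restrains mTOR complex 1 through the GATOR complexes and is induced by stress. It read 23.1, 32.7 and 38.5 CPM in NSC, 3.71, 6.14 and 2.87 in ENB, 4.74, 6.20 and 9.08 in LNB, and 18.3, 50.1 and 13.0 in Neuron. Both neuroblast stages lay below all libraries of NSC and Neuron. Sesn2 fell by 2.89 ± 0.58 from NSC to ENB (adjusted p = 0.0109) and rose by 2.03 ± 0.56 from LNB to Neuron (adjusted p = 0.0318). The fall was lost without ENB replicate 3 (0.053), and the rise without LNB replicate 1 (0.116) or 2 (0.0664) or Neuron replicate 2 (0.136). The rise was lost too with a replicate block (0.0543), with the second index as a term (0.0518), and with LNB replicate 2 as the sole LNB library. In ribosome-bound mRNA the ENB libraries disagreed, at 11.2 and 0.577 CPM between 21.9 and 15.7 in NSC and 23.1, 19.0 and 14.6 in LNB, and no step was called. Sesn1, Sesn3, Slc38a9 and the GATOR1 genes Depdc5, Nprl2 and Nprl3 were called at no step. Sesn1 was higher in the NSC immunoprecipitate, at 105 and 102 CPM, than in the SVZ controls, at 43.9, 58.9 and 55.7, by 0.97 ± 0.22 (adjusted p = 0.0102), a call lost without NSC replicate 2 (0.0533).

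Ddit4, or REDD1, a stress-induced activator of the TSC complex, read 22.0, 27.6 and 16.6 CPM in NSC and 16.7, 11.6 and 10.8 in ENB. It read 15.6, 22.7 and 21.7 in LNB and 11.9, 19.2 and 5.21 in Neuron, and no step was called. Both the NSC and the Neuron immunoprecipitates held more Ddit4 than their controls: 13.6 and 12.3 CPM against 3.28, 3.67 and 5.74 in the SVZ, and 16.7 and 19.6 against 9.02, 5.62 and 5.82 in the OB. The differences were 1.61 ± 0.41 (adjusted p = 0.0172) and 1.41 ± 0.40 (adjusted p = 0.0179). The first was lost without NSC replicate 1 (0.0583) or 2 (0.0585) or SVZ control replicate 2 (0.0577), and the second without OB control replicate 2 (0.0534) or Neuron replicate 2 (0.0863).

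The 28 genes called at no step ran from -0.76 to 1.33 at NSC to ENB, from -0.79 to 0.75 at ENB to LNB and from -0.94 to 0.94 at LNB to Neuron in total mRNA. In ribosome-bound mRNA their ranges were -0.80 to 1.13, -0.77 to 0.87 and -0.62 to 0.77.

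Whether a step differed between ribosome-bound and total mRNA was tested directly as an interaction over 21 libraries. No member was called from NSC to ENB, where 2.81% of all genes were called, 1.49% as higher, or from ENB to LNB, where 6.15% were, 1.89% as higher and 4.26% as lower. Of the 40 genes, 6 and 5 had an unadjusted p below 0.05 at these steps, a count not taken over all genes. DESeq2 called 2 and 0 of the 40. Over 30027 genes it called 969 as higher and 669 as lower at the first step, and 696 and 1644 at the second. From LNB to Neuron 1 member was called as lower, where 3.15% of all genes were called, 1.46% as higher and 1.69% as lower. This was Rragd, whose ribosome-bound change was smaller than its total change by 2.03 ± 0.51 on the log2 scale (adjusted p = 0.0386). In total mRNA it had risen from 19.6 to 27.3 CPM in LNB to 74.7 to 265 in Neuron, and in ribosome-bound mRNA from 321 to 373 to 581 to 604, where the LNB libraries were already high. That call was lost without 9 of the 11 libraries in turn (adjusted p over all 11 from 0.00623 to 0.175), with the replicate number as a block (0.0688), and with LNB total replicate 2 alone (-1.80, adjusted p = 0.126). Deptor had a difference of -1.87 ± 0.62 (adjusted p = 0.109). All 10 members called in total mRNA at this step had the same sign and a smaller size in ribosome-bound mRNA, a description only, since they were chosen for their size in total mRNA.

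**Figure D4:**
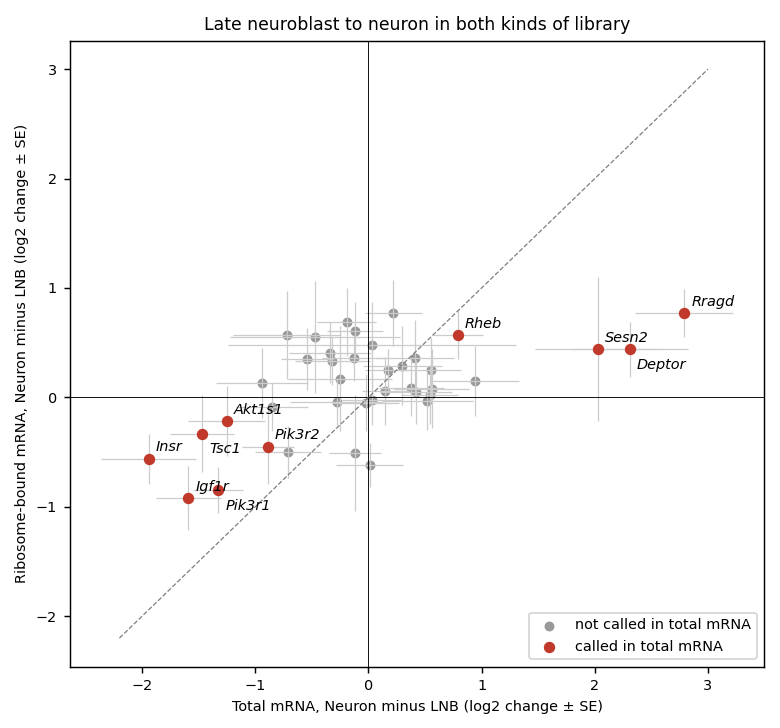
Change from LNB to Neuron of the 40 genes in total mRNA (horizontal axis) and ribosome-bound mRNA (vertical axis), both as log2 change with SE bars; red points were called in total mRNA and the dashed line marks equal change. The 10 red points lie on the same side of 0 on both axes and closer to 0 in ribosome-bound mRNA.

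Against the no-HA control of its tissue, the NSC immunoprecipitate had 5 of the 40 genes higher and 3 lower, where 15.3% of all genes were called, 8.75% as higher and 6.59% as lower. The higher ones were Sesn1, Rheb, Ddit4, Akt2 and Rragc, and the lower ones Pik3cd, Rictor and Tsc1. Rheb, at 118 and 142 CPM against 83.1, 67.5 and 53.7, was higher by 0.93 ± 0.22 (adjusted p = 0.0116), a call lost without NSC replicate 2 (0.107) or SVZ control replicate 3 (0.0553). Rictor, Tsc1 and Rragc each lost the call without 4 of the 5 libraries in turn (adjusted p up to 0.254, 0.255 and 0.159). Without NSC replicate 2 the count of calls fell to its lowest of 0. For ENB the count was 0, where 1.52% of all genes were called, 0.708% as higher and 0.813% as lower. The smallest adjusted p among the 40 was that of Igf1r, 0.0548, and 7 of the 40 had an unadjusted p below 0.05, a count not taken over all genes. DESeq2 called 2 of the 40, and over 29966 genes it called 388 as higher and 474 as lower.

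The LNB immunoprecipitate had 4 members higher and 1 lower than the OB control, where 10.1% of all genes were called, 7.00% as higher and 3.06% as lower. Higher were Pik3r1, Pik3r2, Rraga and Rheb and lower was Rps6kb2. Pik3r2 read 178, 199 and 188 CPM against 108, 78.6 and 62.1, a difference of 1.18 ± 0.30 (adjusted p = 0.0253). It was lost without LNB replicate 1 (0.0552), 2 (0.0917) or 3 (0.0977) or OB control replicate 2 (0.0565) or 3 (0.0972). Rraga lost the call without LNB replicate 1 (0.0551), 2 (0.0925) or 3 (0.0956), and Rheb without 5 of the 6 libraries in turn (adjusted p up to 0.11). With RLE scaling the split of all calls went from 1335 higher and 583 lower to 663 and 762, and that of the members to 3 and 1. The Neuron immunoprecipitate had 8 higher and 3 lower, where 27.4% of all genes were called, 11.6% as higher and 15.7% as lower. The count of 11 members called in either direction was near the 27.4% of all genes, but the directions differed. Over all genes more were lower than higher, while more of the members were higher than lower. The higher ones were Rheb, Rragd, Lamtor5, Pdpk1, Rraga, Ddit4, Tbc1d7 and Lamtor3, and the lower ones Rps6kb2, Insr and Tsc1. Each of the lower calls was lost on leaving out 1 library. Tsc1, at 39.5 and 45.2 CPM against 61.6, 54.3 and 137, differed by -0.46 without OB control replicate 3, which holds the highest level (adjusted p = 0.238), and was lost too without Neuron replicate 1 (0.169) or 2 (0.127). Insr was lost without Neuron replicate 1 (0.0667) or 2 (0.242) or OB control replicate 1 (0.0611) or 3 (0.109), and Rps6kb2 without Neuron replicate 2 (0.107). Of the higher ones, Pdpk1 and Rraga were lost without Neuron replicate 2 (0.0746 and 0.0611), and Tbc1d7 without 4 of the 5 libraries in turn (adjusted p up to 0.115). Leaving out 1 library gave from 1 to 4 calls for LNB and from 4 to 9 for Neuron. The immunoprecipitates are compared with controls that other comparisons share, so these sets of calls are not independent of each other.

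The background itself depended on tissue. Between OB and SVZ controls 5 members were higher in the OB and none lower, where 11.8% of all genes were called, 5.65% as higher and 6.12% as lower. They were Deptor, Rragd, Igf1r, Depdc5 and Pik3cb. The Deptor call held under all 12 alternatives. Igf1r was higher by 0.96 ± 0.26 (adjusted p = 0.0211), a call lost without SVZ control replicate 1 (0.0868). Depdc5 lost the call without 5 and Pik3cb without 4 of the 6 libraries in turn (adjusted p up to 0.141 and 0.157). With the ENB to LNB step in ribosome-bound mRNA taken relative to these controls, each of the 4 members called there missed the threshold, and the changes of Pik3r1 and Rheb were 0.75 (adjusted p = 0.288) and 0.37 (adjusted p = 0.646).

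**Figure D5:**
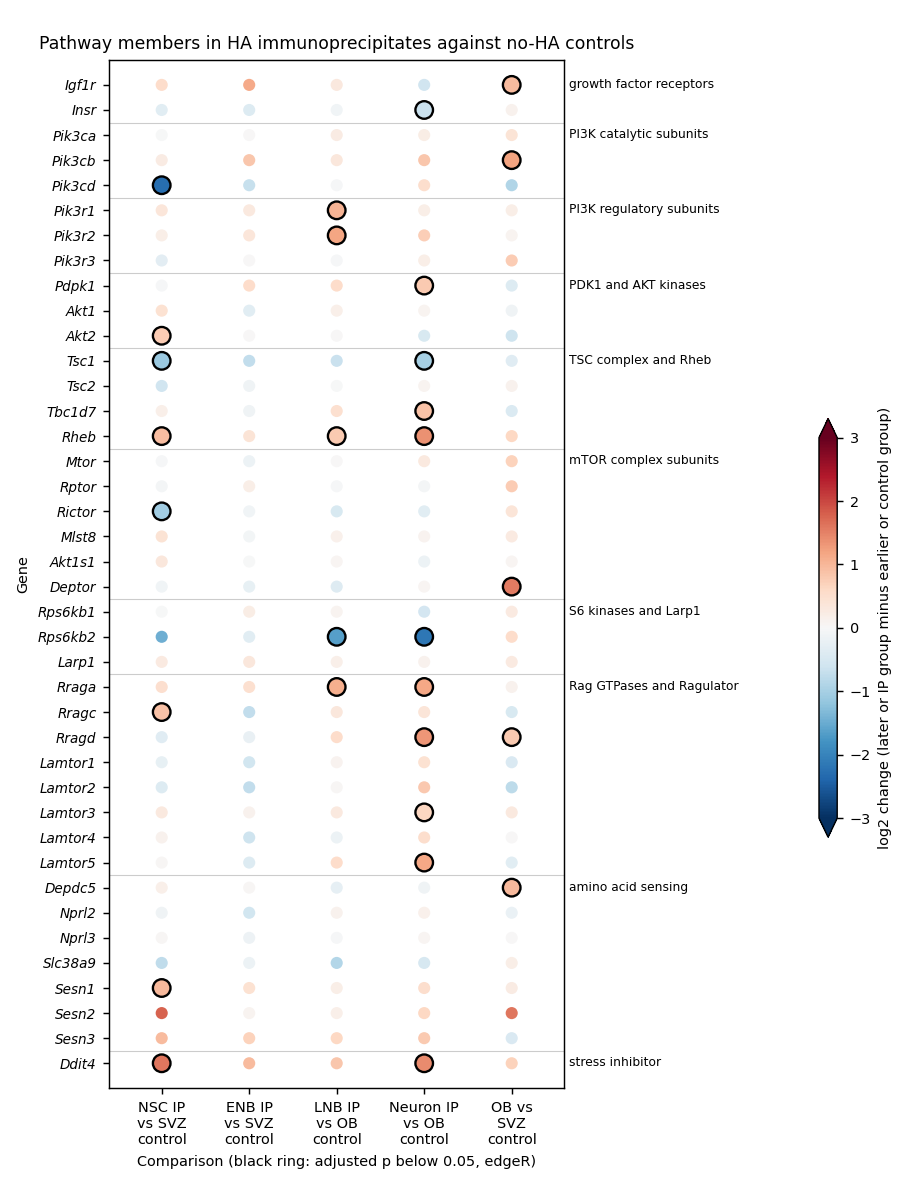
Log2 difference of each of the 40 genes (rows, ordered by role) between the HA immunoprecipitate of each stage and the no-HA control of its tissue, and between the 2 controls (columns); a black ring marks an adjusted p below 0.05. The Neuron column holds 11 rings, the ENB column none, and Deptor is ringed only between the controls.

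A further 69 genes of the pathway, listed by role, gave the surroundings of the 40. Of the 66 tested in total mRNA, 5 rose and 2 fell from NSC to ENB, a share close to the 10.1% of all genes called. Foxo1, a transcription factor that AKT excludes from the nucleus, fell by 3.69 ± 0.68 (adjusted p = 0.00769), from 86.2, 95.6 and 78.4 CPM to 9.14, 5.26 and 5.67. Inppl1 fell by 2.08 ± 0.56, while Ulk2, an autophagy kinase that mTOR complex 1 inhibits, rose by 2.04 ± 0.39, Rhebl1 by 1.83 ± 0.50 and Pik3c2b by 1.64 ± 0.29. From ENB to LNB 1 rose, again Foxo1, by 2.65 ± 0.66 (adjusted p = 0.0467), to 33.0, 15.9 and 78.4 CPM; its highest LNB values stand in replicates 3 and 1, those with high astrocyte markers, whose part was not tested.

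From LNB to Neuron 1 of these 66 genes rose and 6 fell in total mRNA, a share below the 14.7% of all genes called, and for the falls close to the 9.34% called as lower. Sgk1, an AKT-related kinase downstream of mTOR complex 2, rose by 1.85 ± 0.50 (adjusted p = 0.0277). Prkaa1, the AMPK catalytic subunit alpha-1, fell by 2.12 ± 0.42 (adjusted p = 0.00645), Rhebl1 by 2.07 ± 0.51, Prkab1 by 1.29 ± 0.25 and Eef2k by 1.25 ± 0.29. Eif4b and Rps6, translation genes whose proteins are phosphorylated downstream of mTOR complex 1, fell as well, Rps6 from 168, 166 and 149 CPM to 102, 84.1 and 76.0 (adjusted p = 0.011); reads of Rps6 can be shared with near-identical pseudogene copies, so its level is uncertain.

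In ribosome-bound mRNA 4 of the 69 rose and 3 fell from NSC to ENB, 5 rose and 8 fell from ENB to LNB, and 3 fell from LNB to Neuron. Over all genes 8.28%, 12.9% and 4.13% were called at these steps, so the share in the list was close to the background at the first and last and above it from ENB to LNB. Igf1, the ligand of Igf1r, rose by 3.80 ± 0.61 from ENB to LNB (adjusted p = 0.000469), from 4.04 and 0.577 CPM to 36.9, 26.6 and 34.4. The controls of the 2 tissues differed in Igf1 by 4.78 ± 0.53 in the same direction, with 67.4, 78.5 and 32.2 CPM in the OB. Sgk1 rose by 2.78 ± 0.35 from NSC to ENB and fell by 2.86 ± 0.30 from ENB to LNB; it read 321 and 184 CPM in ENB against 57.5 to 68.8 in the SVZ controls, and was higher there by 2.01 ± 0.29. Ddit4l, a relative of Ddit4, fell by 4.02 ± 0.45 from ENB to LNB and Prr5l by 3.29 ± 0.55.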

How the data were processed

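Total mRNA of sorted cells and anti-HA immunoprecipitates with their no-HA controls were sequenced as polyA-selected Smart-seq2 libraries, per the labels' protocols. The authors deposited raw read counts, expected counts and TPM values per gene. The submitters' processing notes name RSEM 1.2.21 and Bowtie2 2.2.6; the counter behind the raw counts and its strand setting are not given in the sources used here. The library kit does not mark strand, so reads of overlapping genes cannot be told apart. Of the 40 genes, 21 overlap another gene and 8 a protein-coding one (Pik3ca, Tsc2, Mtor, Mlst8, Rps6kb1, Lamtor1, Nprl2 and Nprl3), none of them among the 12 called at a step.

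Raw counts were tested with edgeR 4.0.16 in R 4.3.3 (TMM scaling, filterByExpr, quasi-likelihood test, Benjamini-Hochberg adjustment over all genes tested, threshold 0.05). Total libraries, immunoprecipitates with controls, and both kinds together for the interaction were fitted apart, over 17592, 19066 and 19913 genes. CPM were computed from the deposited counts and TMM scaling, separately in total libraries and immunoprecipitates, and are not compared between the 2 kinds. The deposited TPM were used only for levels between genes. The TPM table has 92 entries that name no gene, which were set aside.

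All 40 genes are accounted for. Fold changes are given for those called at a step or in the interaction, levels per library for those called in total mRNA or the interaction and for Mtor, Larp1, Tsc1, Tsc2, Igf1r, Insr and Ddit4, and up to 5 called genes per comparison for the wider pathway, by size. Genes and lists were chosen with earlier results of these data known. Alternatives were RLE scaling, no filter, expected counts (rounded), DESeq2 1.42.0, a replicate block, the second index as a term, and leaving out each library. An animal block, stages relative to their controls, and LNB total replicate 2 alone were added after the data were seen. For single genes, the losses named are mainly those on leaving out a library. Losses under the other alternatives are named for some calls only. Deviations of same-numbered libraries of different stages had correlations from -0.0222 to 0.14 over 12 ribosome-bound pairs and from -0.155 to 0.0765 over 18 total pairs. In groups of 2 libraries the deviations mirror each other, so some of the ribosome-bound values repeat. Labels show that ENB and LNB ribosome-bound replicates 1 and 2 came from the same animals. Their pairs gave 0.14 for replicate 1 and -0.0222 for replicate 2, the highest and the lowest of the ribosome-bound values. The correlations did not single out these known pairs, so they cannot show whether other same-numbered libraries were paired. The code was tested on simulated counts. At total LNB to Neuron it recovered 3% of simulated log2 changes of 1 in size and 31% of those of 2. At the ribosome-bound step it recovered 11% and 70%. The simulation changed far fewer genes than the 2580 and 787 called at these steps in the data. That makes the adjusted threshold stricter, so these shares do not give the rate of missed changes here or compare it between the 2 kinds of library.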

Additional observations from a re-analysis of the deposited data

Results flagged for a closer look

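Rragd changed differently in ribosome-bound and total mRNA from LNB to Neuron, by -2.03 ± 0.51 (edgeR, adjusted p = 0.0386); its values are given above.

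In the wider pathway 4 genes did so from ENB to LNB. Foxo1 differed by -4.97 ± 0.80 (adjusted p = 0.00269): total mRNA rose from 9.14, 5.26 and 5.67 to 33.0, 15.9 and 78.4 CPM, and ribosome-bound mRNA fell from 101 and 104 to 23.3, 20.99 and 21.6 CPM. The no-HA controls held 114 to 182 CPM in the SVZ and 29.2 to 42.0 in the OB. Sgk1 differed by -3.27 ± 0.62 (adjusted p = 0.00676), with total levels of 12.1 to 15.1 CPM in ENB and 12.3 to 19.8 in LNB. Phlpp1, a phosphatase that acts on AKT, differed by -2.61 ± 0.70 (adjusted p = 0.0343). Ddit4l differed by -7.64 ± 1.63 (adjusted p = 0.0122), but 1 ENB total library holds 0 counts, so the size depends on the prior count.

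From LNB to Neuron, Sgk1 differed by -2.47 ± 0.64 (adjusted p = 0.0431) and Prkaa1 by 2.18 ± 0.58 (adjusted p = 0.0465). Total Prkaa1 fell from 35.02, 19.2 and 43.1 to 6.12, 7.84 and 8.38 CPM, while ribosome-bound Prkaa1 read 36.1, 37.1 and 34.4 in LNB and 51.9 and 23.3 in Neuron.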

How the results depend on the processing

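Of 53 calls of members, tried under 637 alternatives in all, 425 results kept the call, 211 lost it and 1 reversed, ribosome-bound Deptor from ENB to LNB relative to the controls (-0.16). Of 90 counts under alternatives other than leaving out a library, 59 stayed within 1.5 times. The others follow, with the cause not tested. Total NSC to ENB, 5 calls, gave 3 with no filter and 8 with DESeq2. Total ENB to LNB, 2 calls, gave 1 with expected counts and 0 with the replicate block or the second index. With LNB replicate 2 alone the counts at total ENB to LNB and total LNB to Neuron were lower, over all genes as well as the members. Ribosome-bound NSC to ENB, 1 call, gave 4 with no filter, 2 with expected counts, 4 with DESeq2 and 4 with the second index. Ribosome-bound ENB to LNB, 4 calls, gave 7 with no filter and 0 relative to the controls. Ribosome-bound LNB to Neuron, 1 call, gave 2 with RLE, 0 with no filter, 0 with expected counts and 4 with DESeq2. The interaction gave 1 with expected counts and 2 with DESeq2 at NSC to ENB. At LNB to Neuron, 1 call, it gave 2 with DESeq2 and 0 with the replicate block, and LNB replicate 2 alone raised the count. NSC against its control, 8 calls, gave 4 with expected counts, 5 with the replicate block and 1 with the second index. ENB against its control, 0 calls, gave 1 each with RLE, no filter and expected counts and 2 with DESeq2. OB against SVZ control, 5 calls, gave 9 with DESeq2 and 1 with the second index.

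Leaving out 1 library gave 1 to 3, 0 to 2 and 6 to 10 calls at the 3 total steps, 0 to 2, 2 to 5 and 0 to 2 at the 3 ribosome-bound steps, and 0 to 0, 0 to 2 and 0 to 1 in the interaction. For the immunoprecipitates against their controls it gave 0 to 8 for NSC, 0 to 0 for ENB, 1 to 4 for LNB and 4 to 9 for Neuron, and 2 to 6 between the controls. Within a second index the called members kept their sign in total mRNA, a description only, since they were called from these same libraries. At LNB to Neuron only 1 index held both stages, with 3 Neuron libraries and 1 LNB library. The second index could not be fitted for the interaction from LNB to Neuron. Replicate numbers mark shared animals for ribosome-bound ENB and LNB replicates 1 and 2 alone, so the replicate block elsewhere is a check by number; with it ribosome-bound ENB to LNB gave 5 calls, within 1.5 times. With 2 or 3 libraries per stage, a member that missed the threshold in total or in ribosome-bound mRNA is not shown to be unchanged.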
